A study of Rattus norvegicus with 18 samples.

Results

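The comparison covers 12 of the 18 rats of a small RNA sequencing series, 6 naive rats and 6 rats after corticospinal tract injury with a control vector (bPYX+GFP). It asked which microRNAs (miRNAs) differed in cervical dorsal root ganglia (DRG), which hold the cell bodies of sensory neurons, between these groups. All rats were adult Lister Hooded rats. Naive rats had no surgery. In bPYX+GFP rats both corticospinal tracts were cut in the medullary pyramids, and a day later the forelimb flexor muscles of one side were injected with an adeno-associated virus (AAV1) that carried green fluorescent protein under the CMV promoter. Ganglia of cervical levels 6 to 8 on the injected side were combined for each rat, 10 weeks after injury, and gave 1 library. The remaining 6 rats had the same injury and a vector for human neurotrophin-3 (bPYX+NT3), and their values are set beside the others only for miRNAs named here. The injury, the operations and the vector came together in bPYX+GFP rats, so their parts in a difference from naive rats cannot be told apart. A miRNA was included if at least 6 of the 18 libraries had over 10 counts of it, which held for 373 of the 753 listed. Whole ganglia hold neurons, glia, vessels and connective tissue, and fewer cells of a type cannot be told apart from less RNA per cell.

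A miRNA is cut from a hairpin precursor, and either arm of the hairpin, named 5p or 3p after its end, can be loaded into an Argonaute protein. The loaded RNA pairs with messenger RNAs mainly through its seed, a short stretch near its 5′ end, and represses them. miRNAs with the same seed form a family with largely shared target sites, and the less abundant arm of a precursor is often called the passenger strand. In sensory ganglia, miRNAs are known for roles in neuronal identity, in the response of neurons and glia to nerve injury, and in pain.

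Mature sequences were taken from RefSeq (assembly GRCr8), where 350 of the 373 miRNAs were matched by name. The sequences below are 5′ to 3′, and capitals mark the seed, bases 2 to 8. The first set shows miRNAs that passed the adjusted threshold alone or as a seed family and had a matched sequence, which miR-30e-3p had not, with a second member of their seed family where one was tested.
miR-379-3p: cUAUGUAAcaugguccacuaac
miR-496-3p: aGUAUUACauggccaaucucc
miR-370-3p: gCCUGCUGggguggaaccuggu
miR-361-3p: cCCCCAGGugugauucugauucgu
miR-30a-3p: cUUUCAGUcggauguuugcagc
miR-381-3p: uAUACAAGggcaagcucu
miR-539-3p: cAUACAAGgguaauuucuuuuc
miR-125a-5p: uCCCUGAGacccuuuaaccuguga
miR-125b-5p: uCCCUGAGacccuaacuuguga
miR-146b-5p: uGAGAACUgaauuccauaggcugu
miR-146a-5p: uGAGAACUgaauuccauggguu
miR-146b-3p: cCUAGGGAcucaguucuggug
miR-193b-3p: aACUGGCCcacaaaguccc
miR-193a-3p: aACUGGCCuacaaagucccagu
The second set shows the matched arms not printed above of 6 precursors, all among the 7 whose arm ratios had the smallest p, since the arms of 1 hairpin carry different seeds and so 2 sets of targets.
miR-379-5p: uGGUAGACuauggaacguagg
miR-361-5p: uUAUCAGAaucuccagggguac
miR-30a-5p: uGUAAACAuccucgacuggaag
miR-30e-5p: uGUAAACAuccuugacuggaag
miR-145-3p: gGAUUCCUggaaauacuguuc
miR-145-5p: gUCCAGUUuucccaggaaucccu
miR-221-3p: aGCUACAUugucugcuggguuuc
miR-221-5p: aCCUGGCAuacaauguagauuuc

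Libraries held 4.12 to 5.19 M miRNA counts in naive rats (M is the prefix mega) and 4.37 to 6.92 M in bPYX+GFP rats. In this set 2 libraries stood apart. Naive replicate 1 carries the number of the rat that the study left out as an outlier, and bPYX+GFP replicate 3 had 6.92 M counts where the next highest of its group had 4.66 M. Both were kept, and each main count is also given without them. Where 191 listed miRNAs were at 0 in all 12 libraries, the value is given only as listed at 0. The mature forms that usually define several cell types were among these, such as miR-183-5p, miR-338-3p, miR-1-3p and miR-133a-3p.

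A small share of the profile passed the test. In edgeR's quasi-likelihood test the adjusted p was under 0.05 for 9 of 373 miRNAs, which is 2.41% of those tested, with 4 higher (1.07%) and 5 lower (1.34%) in bPYX+GFP rats. At an unadjusted p under 0.05 there were 79 (21.2%), of which 40 were higher (10.7%) and 39 lower (10.5%). The median log2 fold change over all 373 was 0.0036, and another scaling of the libraries moved that median by at most 0.021. The median absolute log2 fold change was 0.14 over all miRNAs and 0.28 over the 79. Among the 9 it ranged from 0.29 to 0.94. The 2 groups did not overlap for 15 miRNAs (4.02%), 6 higher and 9 lower, and 7 of the 15 were among the 9. Base composition and length of the mature sequence had Spearman correlations of -0.03 and -0.081 with the fold change across 350 miRNAs, which are not independent replicates.

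**Figure D1:**
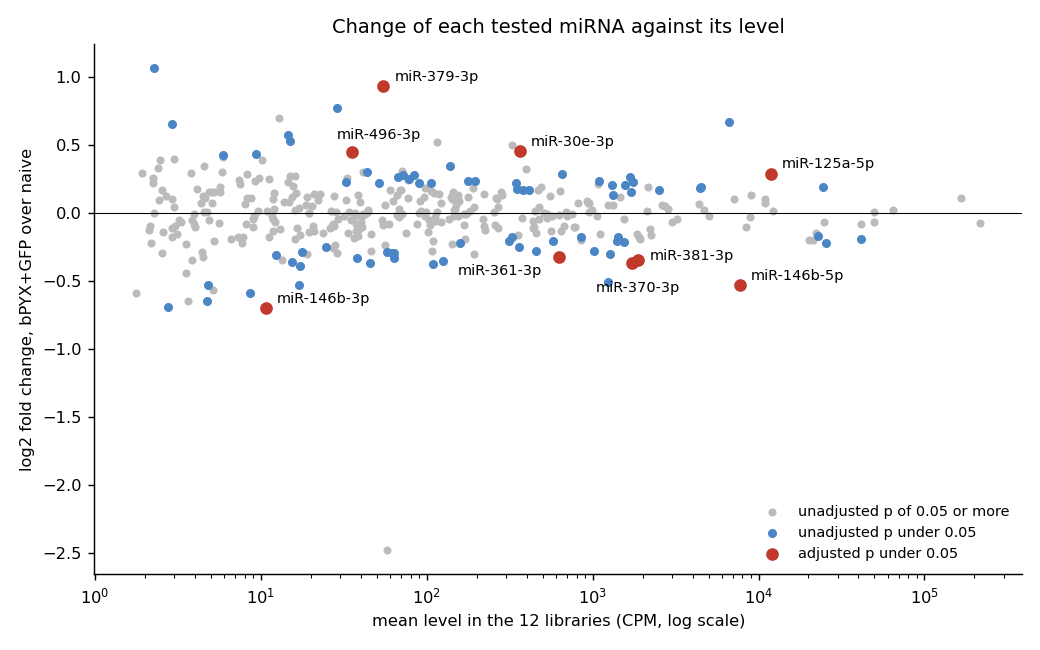
Each point is 1 of the 373 miRNAs, with its mean level in the 12 libraries in counts per M (CPM, log scale) and its log2 fold change, bPYX+GFP over naive. The 9 miRNAs past the adjusted threshold are named and span levels from about those of miR-146b-3p to those of miR-125a-5p, with 4 above 0 and 5 below.

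Calls were found at high, middle and low levels. The 5 most abundant miRNAs held 53.7% of counts in naive and 54.4% in bPYX+GFP rats, and none of them passed an unadjusted p of 0.05 in the edgeR test or the adjusted threshold with DESeq2 (0 of 5). miR-99a-5p was 196916 to 244184 CPM with a median of 223970 CPM in naive rats, and 189044 to 241673 CPM with a median of 202837 CPM after bPYX+GFP (log2 fold change -0.075 ± 0.08). miR-10a-5p was 148802 to 172685 CPM with a median of 159248 CPM in naive rats, and 129587 to 197893 CPM with a median of 175348 CPM after bPYX+GFP (0.11 ± 0.091). The ranges overlapped for both. miR-10b-5p (0.025 ± 0.082), miR-100-5p (-0.062 ± 0.074) and miR-143-3p (0.0096 ± 0.12) completed the 5. Of the 45 miRNAs ranked 6 to 50 by level, 4 passed the adjusted threshold (8.89%). Of the 100 ranked 51 to 150 it was 2 (2%), and of the 223 below them it was 3 (1.35%), beside 2.41% of all. The difference between these shares was not tested.

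Higher in bPYX+GFP rats were miR-379-3p, miR-30e-3p, miR-496-3p and miR-125a-5p. miR-379-3p is the less abundant arm of the first precursor of a large imprinted miRNA cluster, which is transcribed from the maternal chromosome in the Dlk1-Dio3 region. In naive replicates 1 to 6 it was 44.3, 39.8, 31.9, 28.9, 37.8 and 42.8 CPM, and in bPYX+GFP replicates 1 to 6 it was 61.4, 63.8, 93.8, 60.2, 74.4 and 77.9 CPM. Every injured rat was above every naive rat, and the lowest injured value was 60.2 against a highest naive value of 44.3 CPM. The log2 fold change was 0.94 ± 0.13 (SE; edgeR adjusted p = 0.00155), a rise of 1.91-fold on 144 to 591 counts per library. miR-30e-3p, the less abundant arm of a member of the widely expressed miR-30 family, was 281, 296, 301, 331, 274 and 349 CPM in the naive rats and 394, 422, 458, 415, 383 and 441 CPM in the bPYX+GFP rats. These groups did not overlap either, and the log2 fold change was 0.46 ± 0.077 (adjusted p = 0.0046). miR-496-3p belongs to the same imprinted cluster as miR-379. It was 31.4, 27.5, 24.9, 26.5, 33.3 and 34.6 CPM in naive and 38.2, 35.5, 42.5, 40.1, 42.1 and 45.6 CPM in bPYX+GFP rats, without overlap (log2 change 0.45 ± 0.11; adjusted p = 0.0315). miR-125a-5p, a vertebrate relative of lin-4 that is made beside miR-99b and let-7e, was the most abundant of the 9. Its level was 11137, 10805, 10186, 9196, 10461 and 12189 CPM in naive rats and 12879, 11751, 14288, 12576, 13562 and 13240.2 CPM in bPYX+GFP rats. Of the injured rats 5 were above the highest naive rat, and replicate 2 was below it (log2 fold change 0.29 ± 0.073; adjusted p = 0.0443).

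Lower in bPYX+GFP rats were both arms of miR-146b, miR-381-3p, miR-361-3p and miR-370-3p. The miR-146 family is linked to inflammatory signalling, and its 5p arms are known to repress Traf6 and Irak1 upstream of NF-kB. miR-146b-5p was 7898, 11745, 10671, 9019, 8092 and 7041 CPM in naive replicates 1 to 6 and 5993, 6254, 6483, 7488, 5382 and 6172 CPM in bPYX+GFP replicates 1 to 6. Replicate 4 of the injured rats lay above the lowest naive rat and the other 5 lay below it (log2 fold change -0.53 ± 0.12; adjusted p = 0.0282). miR-146b-3p, the rare arm, was 10.8, 13.6, 15.5, 12.2, 13.6 and 13.9 CPM in naive and 8.68, 6.53, 8.73, 9.02, 6.91 and 9.21 CPM in bPYX+GFP rats. Here the groups did not overlap, on 30 to 71 counts per library (log2 fold change -0.70 ± 0.13; adjusted p = 0.00646). miR-146a-5p, which has the same seed and a gene of its own, was 1921 to 2168 CPM with a median of 1991 CPM in naive rats, and 1748 to 3272 CPM with a median of 2182 CPM after bPYX+GFP (log2 fold change 0.19 ± 0.11; adjusted p = 0.328). 

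miR-381-3p comes from the cluster of miR-379 and miR-496. It was 2047, 1939, 2448, 2229, 1972 and 1875 CPM in naive rats and 1571, 1658, 1651, 1685, 1502 and 1782 CPM in bPYX+GFP rats. No injured rat reached the lowest naive rat (log2 fold change -0.35 ± 0.072; adjusted p = 0.0218). miR-370-3p comes from the same imprinted region, upstream of that cluster. It was 1801, 1704, 2339, 1998, 2093 and 1705 CPM in naive rats and 1503, 1455, 1523, 1617, 1264 and 1688 CPM in bPYX+GFP rats, and the groups did not overlap (log2 fold change -0.36 ± 0.09; adjusted p = 0.0443). miR-361-3p, the more abundant arm of its precursor in these ganglia, was 683, 722, 788, 689, 648 and 649.6 CPM in naive rats. In bPYX+GFP rats it was 571, 499, 592, 559.7, 499 and 626 CPM, again without overlap (log2 fold change -0.32 ± 0.073; adjusted p = 0.0315).

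**Figure D2:**
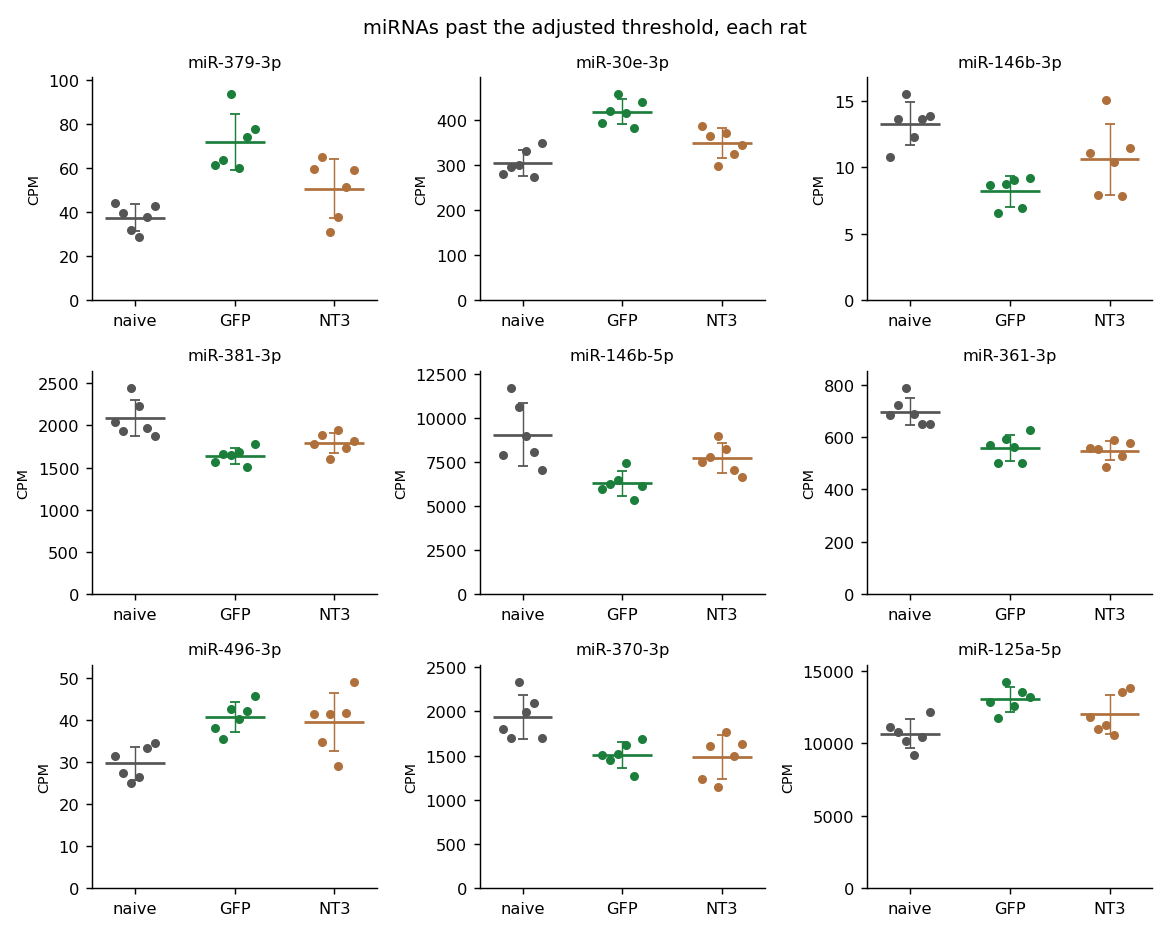
Level in CPM of the 9 miRNAs past the adjusted threshold, 1 panel each, with 1 point per rat, the group mean as a horizontal line and the SD as an error bar. Each vertical axis starts at 0. For 7 of the 9 the naive and bPYX+GFP points do not overlap, and the exceptions are miR-146b-5p and miR-125a-5p.

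The bPYX+NT3 rats are compared with the same naive libraries, so their values are given only side by side (mean ± SD, n = 6). Their mean lay between the other groups' means for 7 of the 9, for example at 349 ± 32.7 CPM for miR-30e-3p, 10.6 ± 2.67 CPM for miR-146b-3p and 12021 ± 1359 CPM for miR-125a-5p. For miR-361-3p it was 548 ± 36.8 CPM and for miR-370-3p 1484 ± 244 CPM, below the bPYX+GFP means of 558 and 1508 CPM. The 9 were picked by the difference between naive and bPYX+GFP rats, which favours a bPYX+NT3 mean in between. The 7 of the 9 is thus a description. How many of all tested miRNAs had such a mean is not given here, and an effect of neurotrophin-3 was not tested.

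The number of calls rested on single rats. Leaving out naive replicate 2 gave 20 calls. Leaving out naive replicate 4 gave 3, as did leaving out bPYX+GFP replicate 1. With either naive replicate 3 or bPYX+GFP replicate 5 removed there were 4, and removing bPYX+GFP replicate 4 left 5. Of the libraries that stand apart, removing naive replicate 1 left 6, removing bPYX+GFP replicate 3 left 8, and removing both left 4, those of miR-379-3p, miR-146b-3p, miR-30e-3p and miR-146b-5p. Without both, the adjusted p was 0.0618 for each of miR-381-3p, miR-361-3p and miR-496-3p, 0.067 for miR-370-3p and 0.0891 for miR-125a-5p. The calls of miR-379-3p, miR-146b-3p and miR-30e-3p kept an adjusted p under 0.05 in all 19 alternative fits, and no named miRNA changed direction in any. miR-381-3p lost its call in single removals of naive replicate 4 and of bPYX+GFP replicate 1 (adjusted p between 0.0532 and 0.0602). miR-146b-5p lost it in single removals of naive replicates 3 and 4 and of bPYX+GFP replicates 1, 2, 5 and 6 (adjusted p between 0.0524 and 0.0828). For miR-361-3p this happened in single removals of naive replicates 1, 3 and 4 and of bPYX+GFP replicates 1, 2, 4 and 5 (adjusted p between 0.0532 and 0.0828), and for miR-496-3p in single removals of naive replicates 3 and 4 and of bPYX+GFP replicates 1, 3, 4, 5 and 6 (adjusted p between 0.0522 and 0.0937). For miR-370-3p it happened in single removals of naive replicates 1, 3, 4 and 5 and of bPYX+GFP replicates 1, 2, 3, 4 and 5 (adjusted p between 0.0522 and 0.0871), and for miR-125a-5p in single removals of naive replicates 1, 3, 4 and 5 and of bPYX+GFP replicates 1, 3, 4, 5 and 6 (adjusted p between 0.0535 and 0.12). With the replicate number as a block the calls of miR-361-3p, miR-370-3p and miR-125a-5p were lost (adjusted p of 0.0599, 0.0863 and 0.0682), and in the fit of all 3 groups those of miR-370-3p and miR-125a-5p (0.0826 and 0.0578).

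Another 15 miRNAs followed by smallest p, none of them past the adjusted threshold in the edgeR test (adjusted p from 0.051 to 0.0894). With the DESeq2 Wald test 13 of the 15 passed, all but miR-17-2-3p and miR-363-3p, among 23 calls of the 328 miRNAs to which DESeq2 gave an adjusted p (7.01%). In edgeR, miR-363-3p passed with the replicate number as a block and with naive replicate 2 left out (lowest adjusted p 0.0466). With edgeR's likelihood ratio test 3 of the 15 did, miR-30a-3p, miR-148a-3p and miR-145-5p, among 12 calls of 373 (3.22%). Of the 15, 7 had a positive and 8 a negative log2 fold change. miR-30a-3p, the less abundant arm of its precursor, was 539 to 710 CPM with a median of 564 CPM in naive rats, and 686 to 809.6 CPM with a median of 708 CPM after bPYX+GFP (log2 fold change 0.29 ± 0.074), with 3 injured rats above every naive rat. let-7d-3p (0.27 ± 0.079), miR-505-5p (0.57 ± 0.17) and miR-323-5p (0.30 ± 0.094) had positive values. miR-148a-3p, known to repress the DNA methyltransferase Dnmt1, was 4268 to 6060.1 CPM with a median of 5032 CPM in naive rats, and 5928 to 14544 CPM with a median of 7008 CPM after bPYX+GFP. Its log2 fold change was 0.67 ± 0.19, and without bPYX+GFP replicate 3, which was at 14544 CPM, it was 0.44 (adjusted p = 0.0492). miR-433-3p (0.23 ± 0.068) and miR-421-3p (0.28 ± 0.087) were among the miRNAs whose groups did not overlap.

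On the negative side, miR-145-5p, a miRNA of contractile smooth muscle, was 1182 to 2228 CPM with a median of 1316 CPM in naive rats, and 858 to 1201 CPM with a median of 1039 CPM after bPYX+GFP (log2 fold change -0.50 ± 0.14; adjusted p = 0.0742). Without naive replicate 2, the highest rat, its adjusted p was 0.0466. miR-193b-3p was 64.1 to 75.0 CPM with a median of 70.3 CPM in naive rats, and 46.5 to 60.9 CPM with a median of 57.0 CPM after bPYX+GFP, without overlap (-0.33 ± 0.084; adjusted p = 0.051). miR-667-5p (-0.37 ± 0.11) and miR-17-2-3p (-0.29 ± 0.087) also had groups without overlap. miR-344b-1-3p (-0.53 ± 0.14), miR-676 (-0.30 ± 0.086), miR-490-3p (-0.29 ± 0.088) and miR-363-3p (-0.28 ± 0.087) had overlapping groups.

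Counts were then added up over miRNAs with the same seed, since such a family acts on largely the same messenger RNAs. The 350 miRNAs with a sequence gave 292 families, of which 37 had at least 2 tested members. With edgeR's quasi-likelihood test, 9 families had an adjusted p under 0.05 (3.08%) and 63 an unadjusted p under 0.05 (21.6%). Of the 9, 6 held a single tested miRNA with a matched sequence, and these were miR-379-3p, miR-146b-3p, miR-361-3p, miR-496-3p, miR-370-3p and miR-30a-3p. miR-30a-3p, summed with no other miRNA, had a log2 fold change of 0.29 ± 0.073 and an adjusted p of 0.0417 over 292 families, and one of 0.051 over 373 miRNAs. The 23 tested miRNAs with no matched sequence entered no family, so that a family can lack members. Among them was miR-99a-5p, which had the highest level of the abundant miRNAs given above, so the families do not cover the whole profile. The 23 also held 2 other 3p arms of the miR-30 family, miR-30e-3p, which rose, and miR-30d-3p, with a negative log2 fold change of -0.28 ± 0.12 (adjusted p = 0.225).

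Of the families with several members, 3 passed. The family of miR-125a-5p and miR-125b-5p rose by 0.29 ± 0.073 on the log2 scale (adjusted p = 0.0417), but miR-125a-5p held 99.8% of its counts, and miR-125b-5p had a log2 fold change of -0.092 ± 0.11. miR-125b has more than 1 precursor, and reads with too low an alignment quality were not counted, so its share is uncertain. In the family of miR-381-3p and miR-539-3p (-0.35 ± 0.071; adjusted p = 0.0194) miR-381-3p held 99.8% and miR-539-3p was also below 0 at -0.32 ± 0.19. In the family of miR-193b-3p and miR-193a-3p (-0.31 ± 0.08; adjusted p = 0.0417) the first held 95.1%. In each of the 3, 1 member thus held nearly all of the reads that were counted. With the most abundant member of each family left out, 37 families could be tested and 0 passed the adjusted p in edgeR's quasi-likelihood test or in its likelihood ratio test, with 4 at an unadjusted p under 0.05.

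The pair of miR-146b-5p and miR-146a-5p shows a family in which members had opposite signs. miR-146b-5p held 77.6% of its counts, and the sum was 9116 to 13748 CPM in naive and 7130.1 to 9835 CPM in bPYX+GFP rats. Its log2 fold change of -0.37 ± 0.11 did not pass (adjusted p = 0.0643), while miR-146b-5p alone did. The family of miR-148a-3p, miR-152-3p and miR-148b-3p had 3 of 3 members above 0 (0.58 ± 0.18; adjusted p = 0.0731). Of these, miR-152-3p was at 0.023 ± 0.14 and miR-148b-3p at 0.50 ± 0.28. The value of miR-148a-3p went from 0.67 to 0.44 without bPYX+GFP replicate 3. In the let-7 family, the largest with 8 tested members and known for roles in differentiation, 6 members were below 0 and 2 above (-0.13 ± 0.069; adjusted p = 0.281). Over the 37 families of 2 or more members, 18 had all members on 1 side of 0 and 11 had an unadjusted p under 0.05, beside 21.6% of all 292 families. Family calls also rested on single rats. Removing naive replicate 2 gave 15, and removing naive replicate 4 gave 2, as did removing bPYX+GFP replicate 1. There were 3 with naive replicate 1, naive replicate 3, bPYX+GFP replicate 4 or bPYX+GFP replicate 5 removed. There were 4 with bPYX+GFP replicate 3 removed, and 5 with naive replicate 5, bPYX+GFP replicate 2 or bPYX+GFP replicate 6 removed. Without both naive replicate 1 and bPYX+GFP replicate 3 it was 2. With the replicate number as a block it was also 2, the families of miR-379-3p and miR-146b-3p. These last families passed in all 18 alternative fits. The family of miR-193b-3p lost its call in 16 of the 18, with each other scaling of the libraries, the likelihood ratio test and the block, and in 11 of 12 single removals. That of miR-30a-3p lost it in 13 of the 18, with the block and in 11 of 12 single removals.

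The balance between the arms of a precursor differed between the groups for several miRNAs, with the smallest p for miR-30e. For 114 precursors both arms passed the detection filter, and the log2 ratio of 3p over 5p counts needs no scaling between libraries. With limma, 12 of these ratios had an adjusted p under 0.05 (10.5%) and 27 an unadjusted p under 0.05 (23.7%). The ratio moved towards 3p in 10 of the 12 and towards 5p in 2. The less abundant arm gained share in 8 and lost share in 4 of the 12, and in 19 and 8 of the 27, beside a gain in 62 of all 114. For 9 of the 12, neither arm alone had passed the adjusted threshold in the edgeR test. The arms had fold changes of opposite sign for 11 of the 12 and for 55 of all 114. A call for the ratio favours arms that move apart, so the first number is a description. It also favours groups that do not overlap, so lack of overlap in the called ratios below is a description too. The number without overlap among all 114 is not given here. Over all 114 the median change of the log2 ratio was 0.053.

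**Figure D3:**
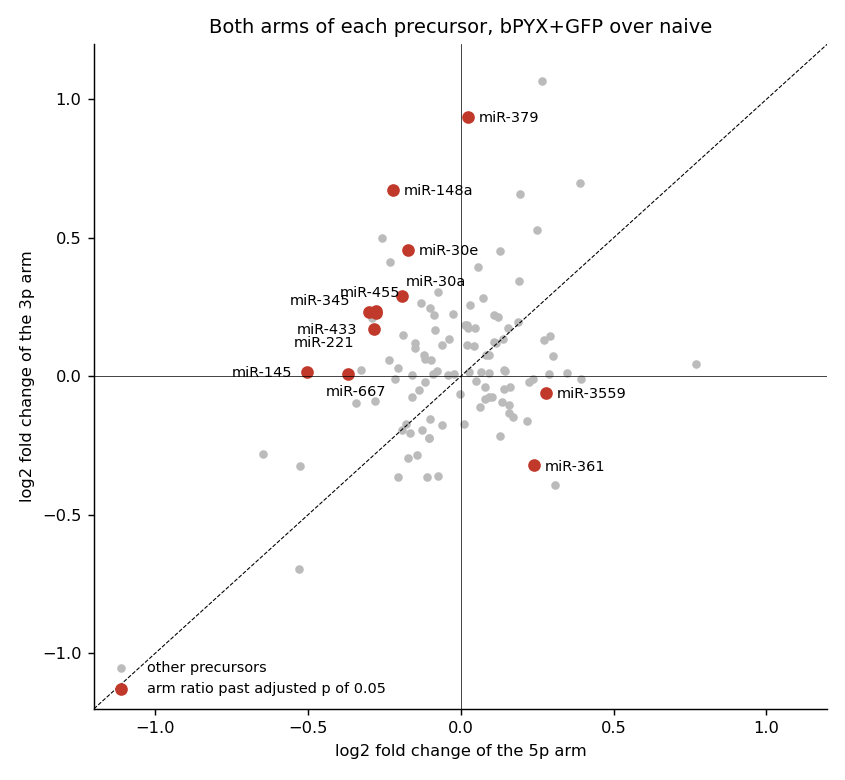
Log2 fold change of the 5p arm (horizontal) and of the 3p arm (vertical), bPYX+GFP over naive, for 114 precursors. On the dashed line both arms change alike. The 12 named precursors have an arm ratio past the adjusted threshold, with 10 above the line and 2, miR-361 and miR-3559, below it.

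For miR-30e, the 3p arm made up 11.6 to 15.6% with a median of 13.0% in naive rats and 17.5 to 20.6% with a median of 18.7% in bPYX+GFP rats. The groups did not overlap. The mean share went from 13.2 ± 1.67% to 18.9 ± 1.32% (SD, n = 6 each) and the log2 ratio rose by 0.63 ± 0.10 (SE; limma adjusted p = 0.00077), while miR-30e-5p had a log2 fold change of -0.17 ± 0.082. For miR-30a, whose 5p arm has the same seed as miR-30e-5p, the 3p share was 2.16 to 3.04% with a median of 2.56% in naive rats and 3.09 to 3.89% with a median of 3.59% in bPYX+GFP rats. It did not overlap either (log2 ratio change 0.48 ± 0.10; adjusted p = 0.00234). miR-30a-5p had a log2 fold change of -0.19 ± 0.093. In both precursors the ratio thus moved to the 3p arm, with a negative value for the 5p arm that passed no adjusted threshold. For miR-379 the 3p share was 0.549 to 1.11% with a median of 0.843% in naive rats and 1.10 to 1.85% with a median of 1.56% in bPYX+GFP rats. The injured rat with the lowest share lay just below the highest naive rat, and the log2 ratio rose by 0.90 ± 0.18 (adjusted p = 0.00234). Its 5p arm was close to even, at 0.024 ± 0.10.

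The ratio of miR-361 moved the other way. Its 5p share was 16.2 to 22.2% with a median of 19.4% in naive rats and 23.9 to 28.9% with a median of 24.7% in bPYX+GFP rats, without overlap (log2 ratio change -0.57 ± 0.11; adjusted p = 0.00234), with miR-361-5p at 0.24 ± 0.085 and miR-361-3p lower as given above. For miR-145, the 3p share was 19.6 to 27.1% with a median of 25.0% in naive rats and 28.1 to 34.0% with a median of 30.6% in bPYX+GFP rats, without overlap (0.51 ± 0.11; adjusted p = 0.00279). Here the 3p arm itself was even between the groups (0.017 ± 0.11). For miR-455, a miRNA studied in cartilage, the 3p share was 23.6 to 30.6% with a median of 26.4% in naive rats and 29.9 to 37.9% with a median of 34.2% in bPYX+GFP rats (0.52 ± 0.11; adjusted p = 0.00234). The lowest injured rat was below the highest naive rat. For miR-221, which is known to repress the cell cycle inhibitor p27 and to rise in axotomised sensory neurons, the 5p share was 11.5 to 14.6% with a median of 12.4% in naive rats and 8.40 to 10.1% with a median of 9.72% in bPYX+GFP rats, without overlap (0.46 ± 0.10; adjusted p = 0.00405). The 5p arm lost share while miR-221-3p had a log2 fold change of 0.17 ± 0.094.

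The other 5 ratios had larger adjusted p. The 5p share of miR-148a was 2.96 ± 0.774% in naive and 1.74 ± 0.568% in bPYX+GFP rats (SD, n = 6 each; log2 ratio change 0.83 ± 0.22; adjusted p = 0.0174). That of miR-433 went from 3.03 ± 0.468% to 2.18 ± 0.461% (0.50 ± 0.15; adjusted p = 0.037). The 3p share of miR-345 went from 39.2 ± 1.07% to 48.6 ± 7.12% (0.55 ± 0.17; adjusted p = 0.0468), and its spread was wider in the injured rats. The 5p share of miR-3559 went from 40.1 ± 1.67% to 45.8 ± 3.23% (-0.33 ± 0.11; adjusted p = 0.0468), and that of miR-667 from 51.4 ± 3.49% to 45.2 ± 3.03% (0.36 ± 0.11; adjusted p = 0.0468).

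The first 7 ratios, those of miR-30e, miR-361, miR-379, miR-455, miR-30a, miR-145 and miR-221, kept a limma adjusted p under 0.05 in all 17 alternatives, which included each left-out library. The number of calls was 8 to 15 with 1 library left out, 8 without naive replicate 1, 15 without bPYX+GFP replicate 3 and 13 without both, of which 11 were among the 12 and the call of miR-433 was lost (adjusted p = 0.121). miR-148a lost its call in single removals of naive replicate 3 (adjusted p of 0.0563). The call of miR-433 was lost in single removals of naive replicates 1, 5 and 6 and of bPYX+GFP replicates 1, 2 and 5 (adjusted p between 0.0579 and 0.0846), and miR-667 in single removals of naive replicates 1, 2, 3 and 6 and of bPYX+GFP replicates 1, 2, 4, 5 and 6 (adjusted p between 0.0654 and 0.13). That of miR-345 was lost in single removals of naive replicates 1, 2, 3, 4, 5 and 6 and of bPYX+GFP replicates 1, 2, 4 and 6 (adjusted p between 0.0579 and 0.108), and miR-3559 in single removals of naive replicates 1, 2, 3, 4, 5 and 6 and of bPYX+GFP replicates 2, 4, 5 and 6 (adjusted p between 0.0542 and 0.108). With the replicate number as a block these last 2 calls were lost as well (adjusted p of 0.0664 and 0.0918). In bPYX+NT3 rats, compared here with the same naive libraries and so given side by side, the mean share lay between the other groups for all 12. It was, for example, 15.6 ± 1.15% for miR-30e-3p, 25.2 ± 3.07% for miR-361-5p and 26.1 ± 3.36% for miR-145-3p (SD, n = 6). These 12 were also picked by the difference between naive and bPYX+GFP rats, which favours a bPYX+NT3 mean in between. Their number is thus a description. How many of all tested ratios had such a mean is not given here, and an effect of neurotrophin-3 was not tested.

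**Figure D4:**
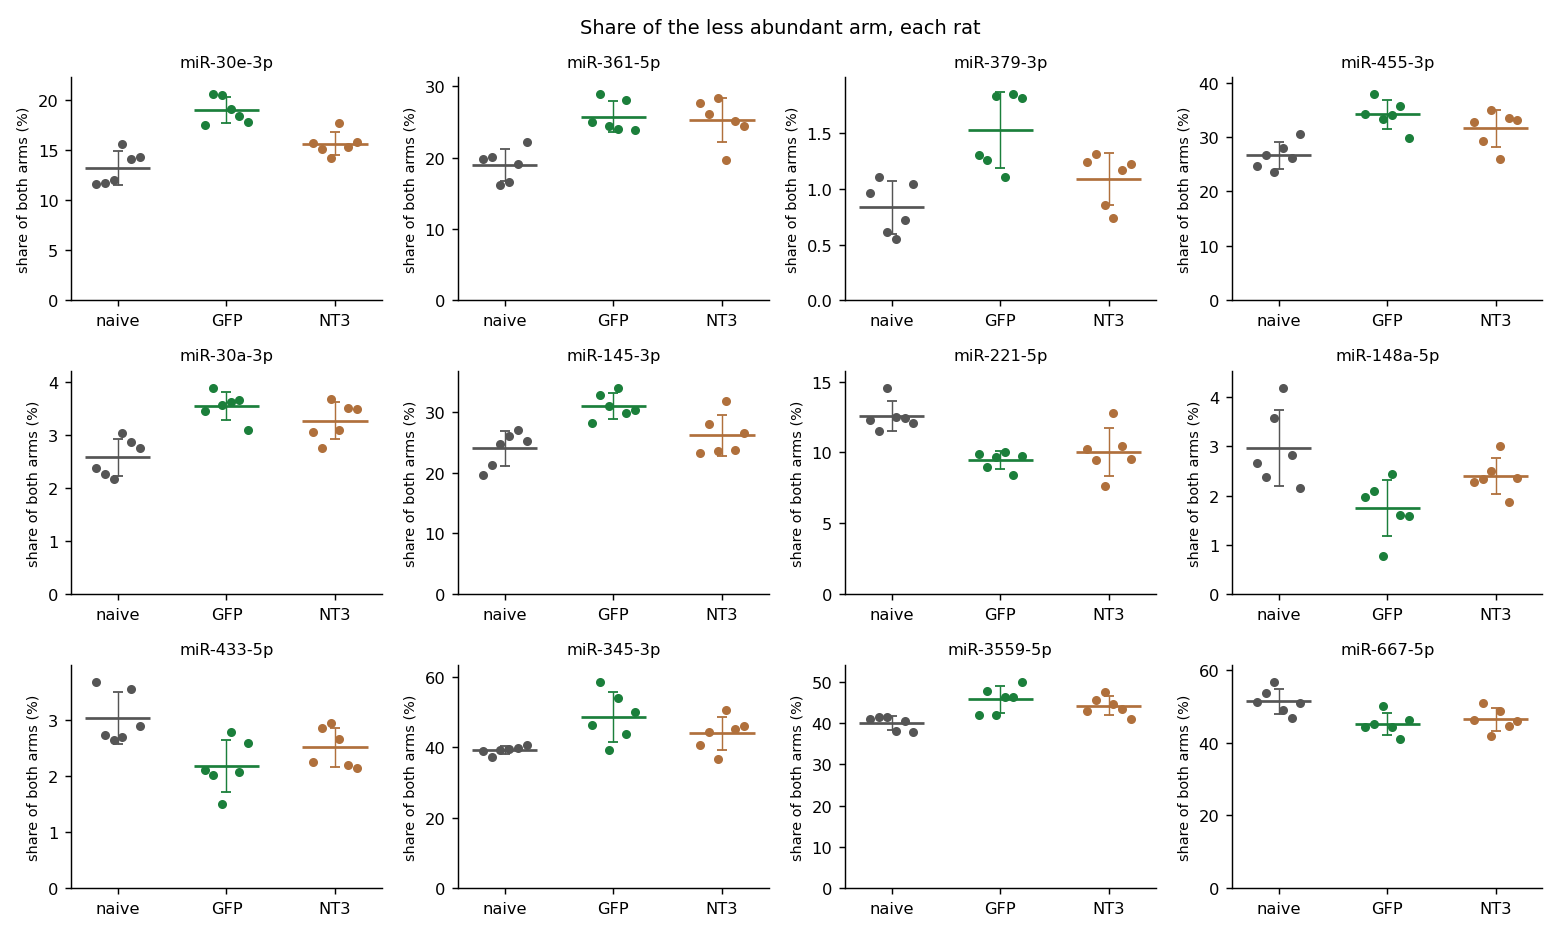
Share in percent of the less abundant arm among the counts of both arms, for the 12 precursors with an arm ratio past the adjusted threshold. Points are rats, lines are group means and error bars are SD, and each axis starts at 0. The naive and bPYX+GFP points do not overlap for miR-30e-3p, miR-361-5p, miR-30a-3p, miR-145-3p, miR-221-5p and miR-3559-5p. The precursors shown were picked by the test of this difference, which favours groups that do not overlap.

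Of the 9 called miRNAs, 4 came from the imprinted Dlk1-Dio3 region, and they had both directions. The lists used here for this region held 70 of the 373 miRNAs tested (18.8%). They leave out miR-6331 and both arms of miR-1188, which were tested and whose genes lie among the others. The list for the cluster from miR-379 to miR-410 named 70 miRNAs, of which 50 were tested. By the edgeR test miR-379-3p and miR-496-3p rose and miR-381-3p fell, 3 of 50 beside 2.41% of all miRNAs, and 25 members were above and 25 below 0, with a median log2 fold change of -0.0051 beside 0.0036 over all miRNAs. The summed level was 22424 to 27069 CPM in naive and 21522 to 26215 CPM in bPYX+GFP rats. At an unadjusted p under 0.05 there were 5 higher and 5 lower, 10 of 50 beside 21.2% of all 373. Besides those named above they were miR-382-5p (0.21 ± 0.072) and miR-369-3p (0.22 ± 0.10) on the positive side, and miR-3072 (-0.58 ± 0.19), miR-666-5p (-0.31 ± 0.11) and miR-300-3p (-0.17 ± 0.059) on the negative side. With DESeq2 the cluster had 5 calls, beside 7.01% of the miRNAs it gave an adjusted p, with miR-323-5p and miR-667-5p added. The most abundant member, miR-379-5p, had a log2 fold change of 0.024 ± 0.10. Of the 23 miRNAs listed upstream of this cluster 20 were tested, 9 above and 11 below 0 (median -0.025). Their summed level was 17012 to 20374 CPM in naive and 18653 to 19395 CPM in bPYX+GFP rats. Not in this list were miR-1188-5p (0.057 ± 0.15) and miR-1188-3p (0.40 ± 0.31). miR-370-3p fell, 1 of 20, and 2 had an unadjusted p under 0.05 with a positive value, miR-433-3p and miR-770-5p (0.77 ± 0.24). Another 2 had one with a negative value, miR-673-3p (-0.36 ± 0.14) and miR-341 (-0.21 ± 0.091). The 5 of 20 at that threshold stand beside 21.2% of all miRNAs. With DESeq2 there were 3 adjusted calls upstream, with miR-433-3p and miR-770-5p added. miR-770-5p was highest in bPYX+GFP replicate 3, at 68.2 CPM with the other 11 rats between 15.7 and 41.3 CPM, and without that library its log2 fold change was 0.50 (DESeq2 adjusted p = 0.0754). Of the calls added by DESeq2, that of miR-770-5p was lost in 4 of 12 single removals, with naive replicates 1, 3 and 4 and bPYX+GFP replicate 3. The others were lost in 7 (miR-667-5p), 10 (miR-323-5p) and 12 of 12 (miR-433-3p). The most abundant, miR-127-3p, which lies antisense to Rtl1, was at 0.079 ± 0.062.

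Lists of miRNAs known for a process gave few calls. Of 6 miRNAs linked to NF-kB signalling, 5 were tested, and 2, both arms of miR-146b, fell, beside 2.41% of all miRNAs that passed. Arms of 1 precursor are not independent, and the list was chosen with earlier results of these data known, so the number is a description. The rare miR-146a-3p had a log2 fold change of 0.66 ± 0.30, which was 0.43 without bPYX+GFP replicate 2, and miR-155-5p one of -0.051 ± 0.24, and the median of the list was -0.051. Of 13 miRNAs known to respond to axotomy in sensory neurons, 8 were tested and 0 passed the adjusted p with edgeR or DESeq2. An unadjusted p under 0.05 was found for 2 of the 8, beside 21.2% of all miRNAs, miR-222-3p (0.18 ± 0.081) and miR-221-5p (-0.28 ± 0.10). Without naive replicate 2, miR-222-3p passed with both tools (log2 fold change 0.24; edgeR adjusted p = 0.0466; DESeq2 adjusted p = 0.0225). The most abundant, miR-21-5p, a miRNA that rises in axotomised ganglia, was 14657 to 30834 CPM with a median of 21915 CPM in naive rats, and 13847 to 26028 CPM with a median of 18757 CPM after bPYX+GFP (log2 fold change -0.20 ± 0.16; adjusted p = 0.534). The groups overlapped. The miRNAs of the Hox clusters, which mark the position along the body axis, had 5 of 5 tested members above 0 with a median of 0.12, and 0 passed an unadjusted p of 0.05 with edgeR or the adjusted threshold with DESeq2. Their summed level was 212739 to 246710 CPM in naive and 182884 to 272001 CPM in bPYX+GFP rats.

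No listed neuronal or glial miRNA passed the adjusted threshold, with edgeR's quasi-likelihood or likelihood ratio test or with DESeq2. In the miR-183, miR-96 and miR-182 cluster of sensory neurons and sense organs, 4 of 5 were tested, all 4 were above 0 with a median of 0.13, and 0 passed the edgeR adjusted p. The unadjusted p was under 0.05 for 2 of the 4, beside 21.2% of all miRNAs, miR-182 (0.20 ± 0.077) and miR-183-3p (0.23 ± 0.10). The summed level was 23684 to 31046 CPM in naive and 29009.9 to 33150.4 CPM in bPYX+GFP rats. miR-182 was 19521 to 26204 CPM with a median of 23267 CPM in naive rats, and 24294 to 28567 CPM with a median of 26166 CPM after bPYX+GFP. Of 25 other neuronal miRNAs 16 were tested, 7 above and 9 below 0 with a median of -0.05 and none at an unadjusted p under 0.05, and their sum was 8992 to 11995 CPM in naive and 9471 to 10612 CPM in bPYX+GFP rats. The most abundant was miR-128-3p (-0.10 ± 0.087), while miR-9a-3p was listed at 0 and miR-124-3p had at most 5 counts. Reads with too low an alignment quality were not counted, so neither value shows that the miRNA was absent. Of 10 glial miRNAs 4 were tested, with sums of 7356 to 12566 CPM in naive and 7859 to 10221 CPM in bPYX+GFP rats, and of these miR-204-3p (0.22 ± 0.10) had an unadjusted p under 0.05. The most abundant was miR-204-5p (-0.025 ± 0.11), and both arms of miR-338 were listed at 0.

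Markers of other tissues were given the same test. Of the blood and immune miRNAs 10 of 12 were tested, 7 above 0, with a median of 0.14 and sums of 994 to 2897 CPM in naive and 1528 to 3166 CPM in bPYX+GFP rats, led by miR-150-5p (0.22 ± 0.26). The endothelial miR-126a-3p was at -0.065 ± 0.082, with 21026 to 29100.2 CPM in naive and 20897 to 26671 CPM in bPYX+GFP rats. In fibroblast miRNAs (3 of 4 tested) the sums were 1627 to 2459 CPM in naive and 1387 to 1870.2 CPM in bPYX+GFP rats, and the most abundant, miR-199a-5p (-0.21 ± 0.10), had an unadjusted p under 0.05 (without naive replicate 2, its log2 fold change was -0.13 and its p 0.118). For miR-143 and miR-145, of smooth muscle and pericytes, all 4 were tested with sums of 42111 to 69586 CPM in naive and 45035 to 60005 CPM in bPYX+GFP rats, led by miR-143-3p. In the cartilage list (4 of 4) the sums were 4095 to 4952 CPM in naive and 3642 to 5161 CPM in bPYX+GFP rats, led by miR-140-3p (-0.063 ± 0.10), with miR-455-3p (0.23 ± 0.084) and miR-455-5p (-0.28 ± 0.11) at an unadjusted p under 0.05. Skeletal muscle miRNAs (4 of 16) had sums of 8562 to 10312 CPM in naive and 9541 to 12128 CPM in bPYX+GFP rats, led by miR-1b (0.13 ± 0.071), and miR-1-3p and miR-133a-3p were listed at 0. Epithelial miRNAs (4 of 14) had sums of 76.4 to 110.4 CPM in naive and 82.2 to 114 CPM in bPYX+GFP rats, led by miR-205 (-0.03 ± 0.13). The liver miRNA miR-122-5p was at 0. In these lists of other tissues 0 members passed the adjusted threshold in edgeR's quasi-likelihood test, while with its likelihood ratio test or with DESeq2 it was 1, miR-145-5p. That miRNA and the 3 named above had an unadjusted p under 0.05, 4 of the 30 tested members of these lists beside 21.2% of all miRNAs. The summed ranges of the groups overlapped in each list, and the part of a shift in cell types in the results above was not tested.

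**Figure D5:**
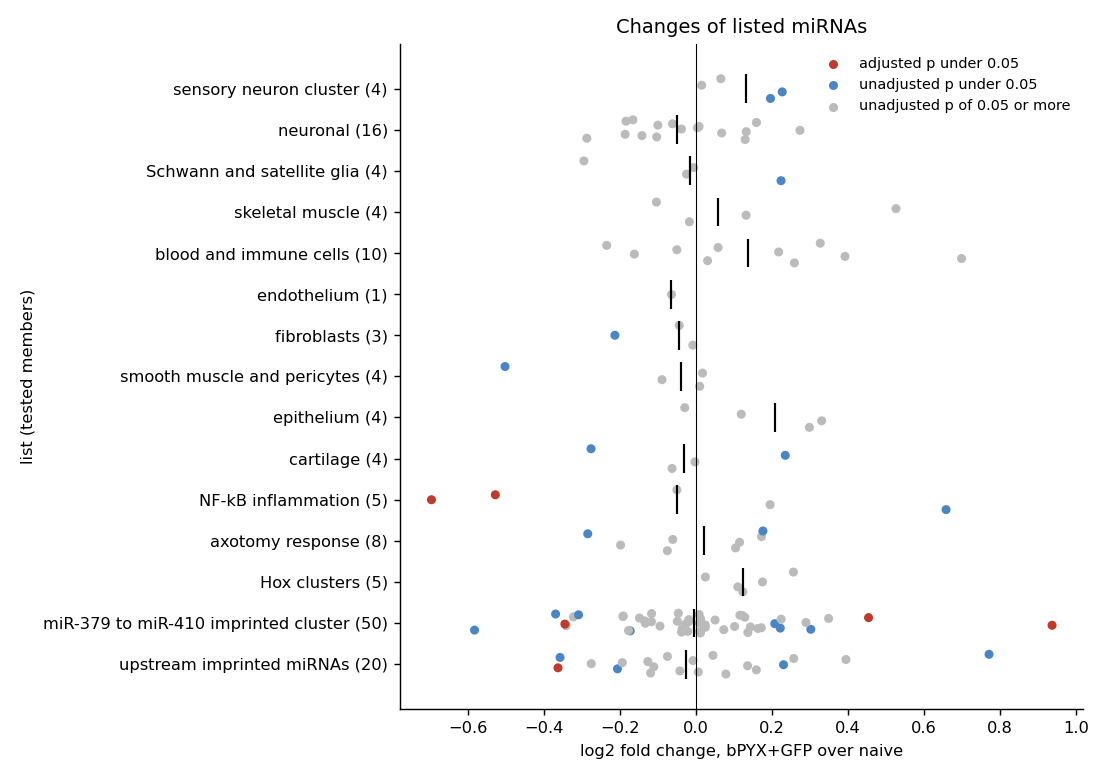
Log2 fold change, bPYX+GFP over naive, of the tested members of 15 lists of miRNAs, with the number of tested members in parentheses and the median as a vertical line. Members past the adjusted threshold lie in the NF-kB list (2, both negative) and in the 2 imprinted lists (2 positive and 2 negative).

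miRNA genes that lie close together are often made from 1 transcript. Genes at most 10 kb apart in RefSeq (GRCr8) were joined, and 14 groups had at least 4 tested miRNAs that come from a single precursor. In 2 of the 14 all members were below 0, and these are the related clusters that hold the miR-17 and miR-20 genes. The group from Mir363 to Mir106a had 5 of 5 below 0 (median -0.29, from -0.65 to -0.21). Of these, 4 had an unadjusted p under 0.05, beside 10.5% of all miRNAs tested that were lower at that threshold. None had an adjusted p under 0.05 in the main fit, while miR-363-3p had one with the replicate block and without naive replicate 2. The group from Mir17 to Mir92a1 had 4 of 4 below 0 (median -0.17, from -0.35 to -0.05), with none at an unadjusted p under 0.05. Only the sensory neuron group had all 4 above 0 (median 0.13, from 0.015 to 0.23). The group that holds miR-125a, from Mir99b to Mir125a, had 4 of 5 above 0 (median 0.11, from -0.022 to 0.29). The remaining 10 groups held members of both signs. Groups of neighbours were looked at after the results were known, and members of a group are not independent.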

How the data were processed

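Small RNA of C6-8 DRG was sequenced from 6 naive and 6 bPYX+GFP rats, with 6 bPYX+NT3 rats used for the detection filter and for values side by side. The authors trimmed adapters, aligned reads with Bowtie2 to Rnor_5.0 and made the deposited raw counts per mature miRNA with HTSeq (versions not given in the sources used here; bcl2fastq 1.8.4 in the submitters' processing notes). Of all reads, 28.0 to 35.1% per library had too low an alignment quality to be counted, so miRNAs with near-identical copies are uncertain. The 5 rows that name no miRNA were left out. Counts were tested with edgeR 4.0.16 (R 4.3.3; TMM scaling, quasi-likelihood F test) and arm ratios, with 0.5 added to each count, with limma 3.58.1. DESeq2 1.42.0, other scalings, filters and pseudocounts, the likelihood ratio test, a replicate block, a fit of all 3 groups and leaving out libraries were alternatives. Benjamini-Hochberg adjustment of p-values ran over all miRNAs, families or ratios. Each p-value weighs a difference between groups against the spread between rats. Printed CPM were TMM scaled over 18 libraries, and the SE came from the F statistic. Libraries of a group differed by at least 39.6 chi-square per degree of freedom. Named were all items with an adjusted p under 0.05, filled by smallest p to 24 miRNAs, 8 families and 6 ratios, the 5 most abundant miRNAs, and in each list members with an unadjusted p under 0.05 and the most abundant member. Members, lists, tests and alternatives were chosen with earlier results of these data known. Methods were checked on simulated data. Sequences came from RefSeq GRCr8, another build than that of the counts, so no positions are given.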

Additional observations from a re-analysis of the deposited data

Results flagged for a closer look

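For each named item, the farthest rat in each group of 6 was compared with the range of its group by Dixon's criterion, which marks about 1 group in 20 by chance. Of 80 groups 6 were marked, where 4 would be by chance. Naive replicate 2 was high for miR-145-5p, at 2228 CPM with the next rat at 1403 CPM. Naive replicate 3 was low for the 3p share of miR-221, at 85.4% with the next at 87.5%. bPYX+GFP replicate 3 was high for the total, with 6.92 M miRNA counts (M is the prefix mega) where the next had 4.66 M, for miR-30a-3p, at 809.6 CPM with the next at 727 CPM, and for miR-148a-3p, at 14544 CPM with the next at 8266 CPM. bPYX+GFP replicate 1 was low for miR-323-5p, at 40.6 CPM with the next at 48.1 CPM.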

How the results depend on the processing

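The 45 named results were refitted 821 times under the alternatives, and 0 changed direction. Of these fits 623 kept their side of the adjusted threshold, 166 lost it and 32 gained it. The number of miRNAs called, 9, was 23 with the DESeq2 Wald test, 79 at an unadjusted p and 4 without both naive replicate 1 and bPYX+GFP replicate 3, an alternative added after seeing the data. It was 3 to 20 with 1 library left out. With median of ratios scaling, library size only, the likelihood ratio test, all 3 groups, no filter or more than 100 counts it was between 7 and 12. The number of families, 9, was 63 at an unadjusted p, 2 without those 2 libraries, 0 without each family's most abundant member, and 2 to 15 with 1 library left out. Arm ratios, 12, were 27 at an unadjusted p and 8 to 15 with 1 library left out. The cause of these shifts was not tested, beyond fewer samples or members in some fits. Replicate numbers did not pair the rats, as correlations of same-numbered deviations ran from -0.24 to 0.33 and 1 of 6 numbers correlated best with itself. With the replicate block 7 miRNAs, 2 families and 11 arm ratios were called. Total miRNA counts were 0.148 M higher in bPYX+GFP (two-sided exact permutation p = 0.894). Leaving out 1 library gave -0.253 to 0.257, and the sign turned to -0.253 without bPYX+GFP replicate 3 (exact permutation p = 0.223). Low counts limit precision for rare arms such as miR-146b-3p.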

Other observations

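Of the 15 miRNAs whose naive and bPYX+GFP rats did not overlap, 3 are outside the rule for named miRNAs and were picked out after their values were seen. miR-423-3p was 1403 to 1598 CPM with a median of 1507 CPM in naive rats, and 1228 to 1387 CPM with a median of 1346 CPM after bPYX+GFP (log2 fold change -0.17 ± 0.056; edgeR adjusted p = 0.0935). let-7g-5p, a guide strand of the let-7 family, was 23152 to 25643 CPM with a median of 24055 CPM in naive rats, and 19529 to 23057 CPM with a median of 21848 CPM after bPYX+GFP (-0.17 ± 0.06; adjusted p = 0.134). let-7b-3p, the less abundant arm of another let-7 precursor, was 47.8 ± 2.60 CPM in naive and 55.7 ± 3.44 CPM in bPYX+GFP rats (SD, n = 6 each; 0.22 ± 0.079; adjusted p = 0.134). An absolute log2 fold change over 1 was found for 2 tested miRNAs, neither past the adjusted threshold. Of these, miR-672-3p was 1.49 ± 1.33 CPM in naive and 3.04 ± 0.775 CPM in bPYX+GFP rats (SD, n = 6 each; log2 fold change 1.07 ± 0.42; adjusted p = 0.173), and miR-741-3p had 564 CPM in naive replicate 1 and 94.2 CPM in bPYX+GFP replicate 4, with no other of the 12 rats above 6.43 CPM (log2 fold change -2.48 ± 1.48; adjusted p = 0.338).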
